A study of Mus musculus with 26 samples.

Results

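Prostaglandin synthesis and receptor genes were described in 3 murine lung cancer cell lines that carry the EML4-ALK fusion. The members were 10 named genes of the pathway, and each was found in the deposited count table by its symbol, with case ignored, among 55391 genes. They were Pla2g4a, Ptgs1, Ptgs2, Ptges, Ptges2, Ptges3, Hpgd, Slco2a1, Ptger2 and Ptger4. The lines EA1, EA2 and EA3 came from C57BL/6 mice. Each is a single cultured line, so differences between lines describe these lines alone. Cells received 100 nM alectinib, an inhibitor of the ALK kinase, or 0.1% DMSO, its solvent, and both arms of a line carry the same fusion. With 1 library for each line, treatment and day, days 1, 2, 3 and 5 gave 24 libraries, so the 4 days of a line and treatment served as its replicates. Nothing in the labels says that days came from separate cultures, so p-values measure the spread between these libraries. Depth ran from 5780062 to 11732401 counts per library (median 9252878). A further pair of libraries, labelled EA3 day 7, was closer to EA2 (r = 0.925 in DMSO and 0.976 in alectinib) than to EA3 (0.822 and 0.814), and entered only an alternative fit of all 26 libraries.

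Prostaglandins are lipid signals made from arachidonic acid. A phospholipase such as cPLA2 (Pla2g4a) releases the acid from membranes, the cyclooxygenases COX-1 (Ptgs1) and COX-2 (Ptgs2) convert it to prostaglandin H2, and synthases (Ptges, Ptges2, Ptges3) turn that into prostaglandin E2. The carrier Slco2a1 takes prostaglandins up from outside the cell, the dehydrogenase Hpgd inactivates them, and the receptors EP2 (Ptger2) and EP4 (Ptger4) raise cAMP in cells that bind prostaglandin E2. In lung and other tumors, COX-2 and prostaglandin E2 are known for dampening immune responses.

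The members changed in different directions. Ptger4 rose with alectinib in all 3 lines, by 2.40 on the log2 scale in EA1, by 2.40 in EA2 and by 2.09 in EA3. Hpgd was at 0 to 4 counts in each DMSO library and higher in every alectinib library of its line. Ptges fell in EA2 and EA3, by 2.59 and 2.69 on the log2 scale, and its change in EA1 was smaller than the spread between days. Ptgs2 passed the test in EA2, at a log2 fold change of 1.95, a call that was lost whichever day was left out, and in EA1 and EA3 it was higher with alectinib on days 1 and 2 and lower on days 3 and 5. Levels are given as CPM, the count of a gene relative to the library total after scaling with edgeR's TMM factors. Unless another tool or filter is named, adjusted p-values are Benjamini-Hochberg values over 14264 genes from edgeR's quasi-likelihood test, with a threshold of 0.05. For the alectinib effects that test kept each line and day as a block, which the fit of slopes over days did not. Of the members, 9 passed the filter on low counts. Ptger2 did not pass it. Hpgd passed through alectinib libraries alone (3 of EA1, 3 of EA2 and 4 of EA3), so that it had to differ between treatments to be tested, and no test of its alectinib effect is given.

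With alectinib, edgeR called 2 of the 8 other tested members in EA1 (1 higher, 1 lower), beside 33.6% of all genes tested (19.0% higher, 14.6% lower). It called 5 in EA2 (3 higher, 2 lower), beside 24.4% (13.0% and 11.3%). In EA3 it called 5 (2 higher, 3 lower), beside 32.6% (17.5% and 15.1%). The median log2 fold change of these 8 members was 0.04 for EA1, -0.28 for EA2 and -0.26 for EA3, and the median over all genes tested was 0.07, 0.00 and 0.07 in the same order. The values with alectinib did not overlap those in DMSO for 2 of the 8 in EA1 (31.4% of all genes tested), 6 in EA2 (26.8%) and 3 in EA3 (23.5%).

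**Figure D1:**
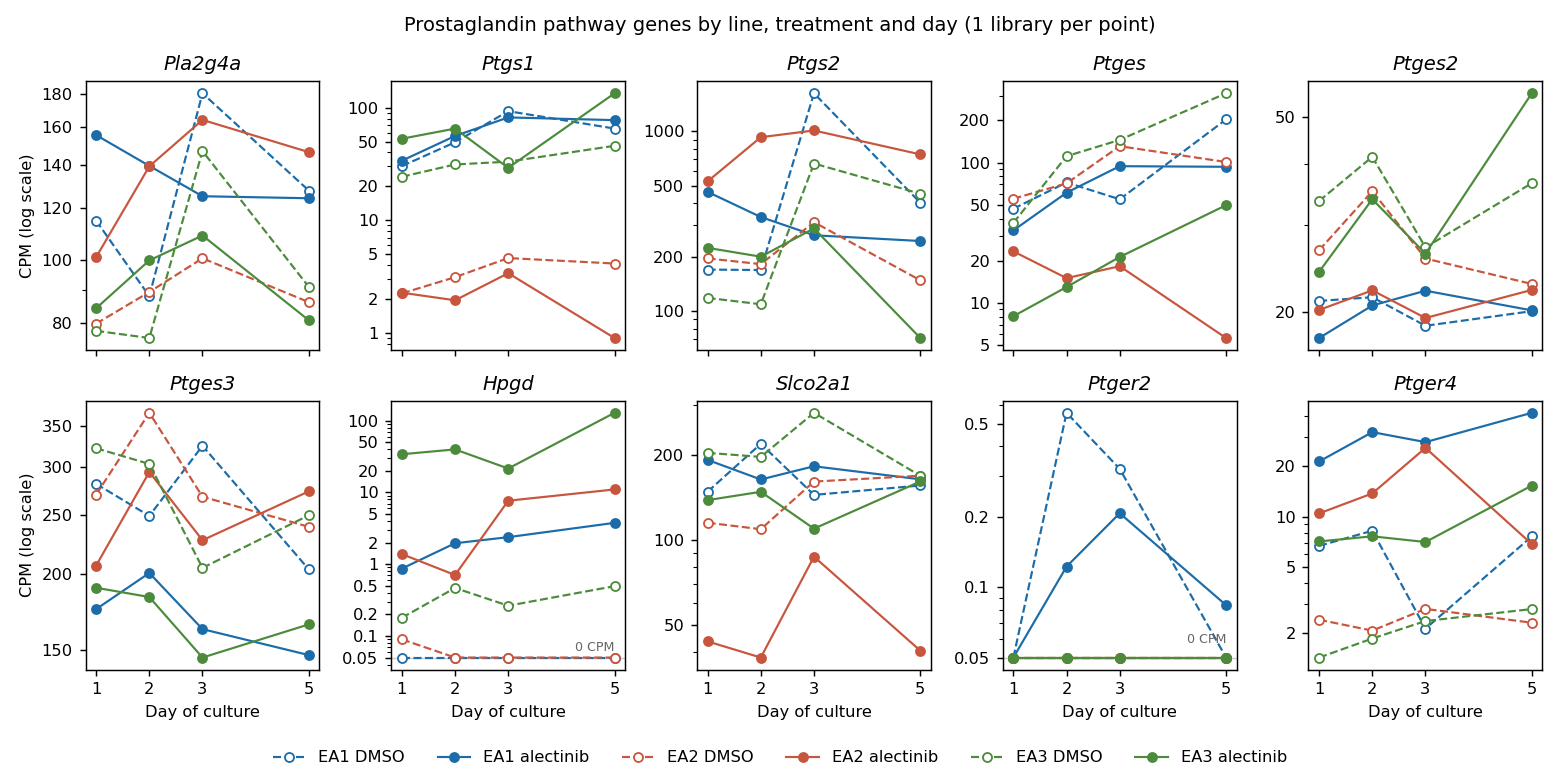
Level of each member in CPM (log scale, a scale of its own per panel) against the day of culture, with 1 library per point, open points for DMSO, filled points for alectinib and a color per line. Libraries at 0 CPM are drawn on the grey line. Within each line, filled points lie above open points for Hpgd and Ptger4. For Ptges in EA2 and EA3, each filled point lies below the open point of the same day.

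The promoters of 4 members are shown because these genes carry the changes described here: Ptgs2, Ptges, Hpgd and Ptger4. All 10 members matched RefSeq on GRCm38.p6. Each line gives the 250 bases before the transcript start, 5′ to 3′ on the strand of the gene, and capitals mark a GC box (GGGCGG, either strand), a CCAAT box (CCAAT, either strand) or a C/EBP sequence (TTGCNNAA). The regions are chr1:150099781-150100030 (plus strand) for Ptgs2, chr2:30903298-30903547 (minus strand) for Ptges, chr8:56294302-56294551 (plus strand) for Hpgd and chr15:5244188-5244437 (minus strand) for Ptger4.
Ptgs2: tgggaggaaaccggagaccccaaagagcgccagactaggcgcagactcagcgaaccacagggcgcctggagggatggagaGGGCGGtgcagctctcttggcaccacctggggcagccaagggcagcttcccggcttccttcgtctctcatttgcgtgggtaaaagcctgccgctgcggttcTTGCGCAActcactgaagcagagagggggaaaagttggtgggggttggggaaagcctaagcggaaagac
Ptges: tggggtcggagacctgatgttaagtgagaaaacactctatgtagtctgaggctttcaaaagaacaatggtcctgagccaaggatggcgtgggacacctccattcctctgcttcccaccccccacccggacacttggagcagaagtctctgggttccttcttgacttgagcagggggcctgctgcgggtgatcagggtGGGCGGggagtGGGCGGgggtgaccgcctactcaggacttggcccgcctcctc
Hpgd: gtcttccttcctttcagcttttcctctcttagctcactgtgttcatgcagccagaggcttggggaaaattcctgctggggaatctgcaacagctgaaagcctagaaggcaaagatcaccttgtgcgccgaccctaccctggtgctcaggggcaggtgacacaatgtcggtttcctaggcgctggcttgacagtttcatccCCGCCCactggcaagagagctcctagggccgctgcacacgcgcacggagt
Ptger4: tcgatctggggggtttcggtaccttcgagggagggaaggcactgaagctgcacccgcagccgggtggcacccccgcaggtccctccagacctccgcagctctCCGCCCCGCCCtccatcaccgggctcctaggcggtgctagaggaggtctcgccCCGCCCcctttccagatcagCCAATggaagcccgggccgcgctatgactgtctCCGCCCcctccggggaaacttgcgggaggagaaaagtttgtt
Ptger4 held 4 GC boxes and 1 CCAAT box, a pair of the GC boxes sharing a base, while Ptges held 2 GC boxes, and Hpgd and Ptgs2 held 1 each. Ptgs2 also held a C/EBP sequence from base -69 to -62. Of 32851 RefSeq promoter windows of 300 bases (250 before to 50 after the start), 35.7% held a GC box, 37.4% a CCAAT box and 10.8% a C/EBP sequence, on either strand. A further stretch of 30 bases, chr1:150100033-150100062 (plus strand, bases 3 to 32 from the annotated RefSeq start of Ptgs2), is shown because the core of a cAMP response element (CRE) and an E-box overlap there. Where transcription starts in these cells was not measured.
Ptgs2 start: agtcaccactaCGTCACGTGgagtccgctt
The CRE core (TGACG, read as CGTCA on this strand) covers bases 14 to 18 and the E-box (CACGTG) bases 17 to 22. Of the same windows, 20.8% held the CRE core and 7.15% the E-box. These matches describe letters only. An exon of the noncoding gene Ptgs2os, on the other strand, overlaps the Ptgs2 window, and its level ran from 1.19 to 8.20 CPM.

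Pla2g4a (chromosome 1, 149829618 to 149961290, minus strand in the GENCODE annotation of mm10) supplies the arachidonic acid. In EA2 its level on days 1, 2, 3 and 5 was 79.9, 89.3, 100.6 and 86.2 CPM in DMSO and 101.0, 139.3, 164.1 and 146.4 CPM in alectinib. Each alectinib library was above all 4 DMSO libraries, and the log2 fold change was 0.61 (standard error 0.18, adjusted p = 0.026 by edgeR). The call was lost without day 1 (adjusted p = 0.0626), day 2 (0.0616) or day 5 (0.129) by edgeR. In EA1 the level was 127.8 ± 38.8 CPM in DMSO and 136.2 ± 14.6 CPM in alectinib (SD, n = 4 days). In EA3 it was 97.9 ± 33.4 and 93.5 ± 13.3 CPM. The 95% interval of the log2 fold change ran from -0.26 to 0.53 in EA1 and from -0.42 to 0.37 in EA3.

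Ptgs2 (chromosome 1, 150100031 to 150108227, plus strand) encodes COX-2, the cyclooxygenase that cells induce in response to stimuli. In EA1 DMSO cultures its level on days 1, 2, 3 and 5 was 170.4, 169.4, 1632 and 401 CPM, and in alectinib it was 461, 334, 264 and 246 CPM. The day 3 library in DMSO, with 15265 counts of the gene, stood above all other libraries. In EA2 the level was 196.6, 182.7, 313 and 148 CPM in DMSO and 528, 929, 1013 and 745 CPM in alectinib, without overlap. In EA3 it was 118, 109, 663 and 450.1 CPM in DMSO and 225, 201, 289 and 70.9 CPM in alectinib.

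The daily log2 ratios of Ptgs2, alectinib to DMSO with a prior count of 2, were 1.42, 2.35, 1.70 and 2.33 in EA2, higher on 4 of 4 days. In EA1 they were 1.44, 0.98, -2.62 and -0.71. In EA3 they were 0.92, 0.88, -1.20 and -2.66. Both lines thus had a positive ratio on days 1 and 2 and a negative one on days 3 and 5, and in all 3 lines the DMSO level was highest on day 3. Over the 4 days the log2 fold change was 1.95 in EA2 (standard error 0.61, adjusted p = 0.0398 by edgeR), -0.17 in EA1 (95% interval -1.48 to 1.15) and -0.48 in EA3 (-1.79 to 0.84). Without the EA1 day 3 libraries the EA1 log2 fold change was 0.57 (adjusted p = 0.54 by edgeR). The EA2 call was lost whichever day was left out, with an adjusted p (edgeR) of 0.0761 without day 1, 0.105 without day 2, 0.07 without day 3 and 0.098 without day 5. The log2 fold change in these fits, each with fewer libraries, ran from 1.81 to 2.10. For each doubling of days, the alectinib effect moved by -1.58 in EA1 (95% interval -2.99 to -0.18) and -1.56 in EA3 (-2.97 to -0.15). Although these intervals leave out 0, the slopes did not pass the edgeR test (adjusted p = 0.605 and 0.494, unadjusted p = 0.0509 for both). Its effect in EA2 exceeded that in EA1 by a log2 difference of 2.11 and that in EA3 by 2.42 (edgeR, adjusted p = 0.18 and 0.181), so a difference between lines was not shown. With no filter on low counts the test between lines gave Ptgs2 an adjusted p of 1.18e-18 against 0.178 with it, but that edgeR fit estimated infinite prior degrees of freedom, so that the spread of Ptgs2 itself between days did not enter.

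**Figure D2:**
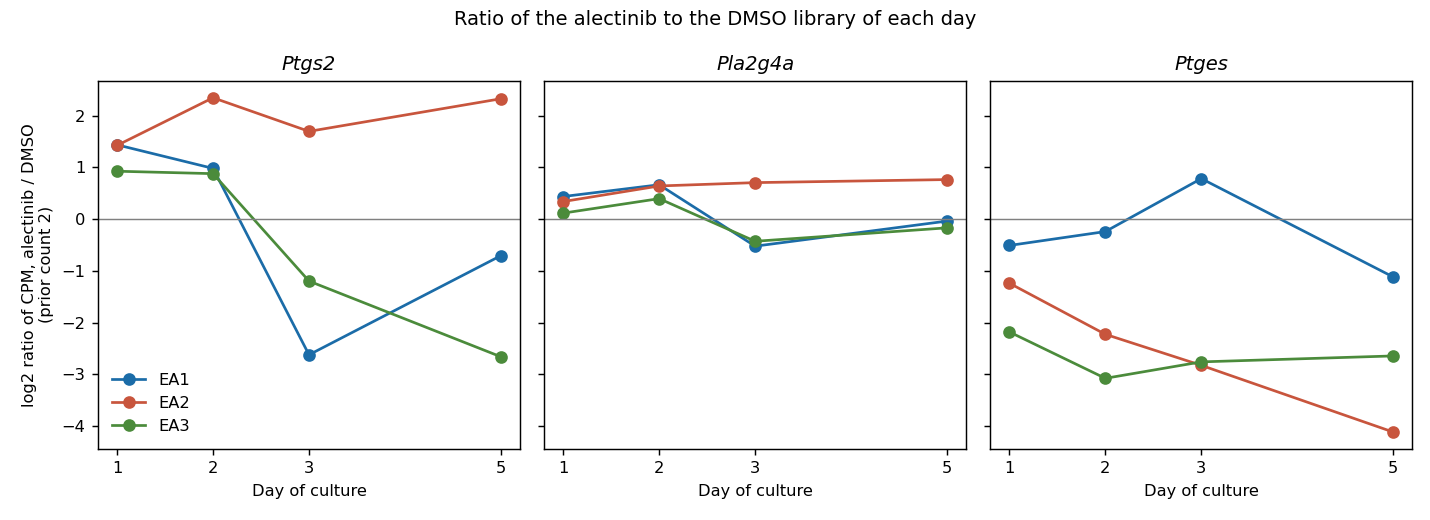
The log2 ratio of the alectinib to the DMSO library (prior count 2) of Ptgs2, Pla2g4a and Ptges against the day of culture, 1 line of points per cell line. Ptgs2 in EA1 and EA3 crossed from above 0 on day 2 to -2.62 and -1.20 on day 3, while in EA2 it stayed above 1.

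Ptgs1 (chromosome 2, 36230426 to 36252272, plus strand) encodes COX-1, the cyclooxygenase many cells make without a stimulus. In EA3 its level on days 1, 2, 3 and 5 was 24.3, 31.3, 33.1 and 45.8 CPM in DMSO and 52.9, 65.1, 29.2 and 134.1 CPM in alectinib. It was higher with alectinib on 3 of 4 days, and the groups overlapped because of day 3. The log2 fold change of 0.90 passed the edgeR test (standard error 0.26, adjusted p = 0.0211). That call was lost without day 1 (adjusted p = 0.0929), day 2 (0.135) or day 5 (0.0751), and with all 26 libraries in the edgeR fit (0.354, at a log2 fold change of 0.46), where the pair labelled EA3 day 7, at 6.43 and 1.78 CPM of Ptgs1, was counted as EA3. In EA2 Ptgs1 was low, from 2.24 to 4.61 CPM in DMSO and from 0.899 to 3.38 CPM in alectinib, which rests on 8 to 48 counts a library. Its log2 fold change there was -0.75 (adjusted p = 0.136 by edgeR), and in EA1 it was 0.10 (95% interval -0.46 to 0.66). Exon bases of Ptgs1 overlap Gm43621 on the other strand over 3.81% of their length, and the strand counted is not stated.

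Per kilobase of exon, Ptgs2 supplied most of the summed level of both cyclooxygenase genes in every library but 1. Its share in DMSO ran from 74.5% to 93.7% in EA1, from 96.8% to 98.7% in EA2 and from 74.8% to 94.4% in EA3. In alectinib it ran from 72.9% to 92.1% in EA1 and from 99.5% to 99.9% in EA2. In EA3 alectinib cultures the share ranged from 31.0% to 89.4%, and the lowest value was the day 5 library, in which Ptgs1 (34.5 CPM per kilobase) exceeded Ptgs2 (15.5 CPM per kilobase).

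**Figure D3:**
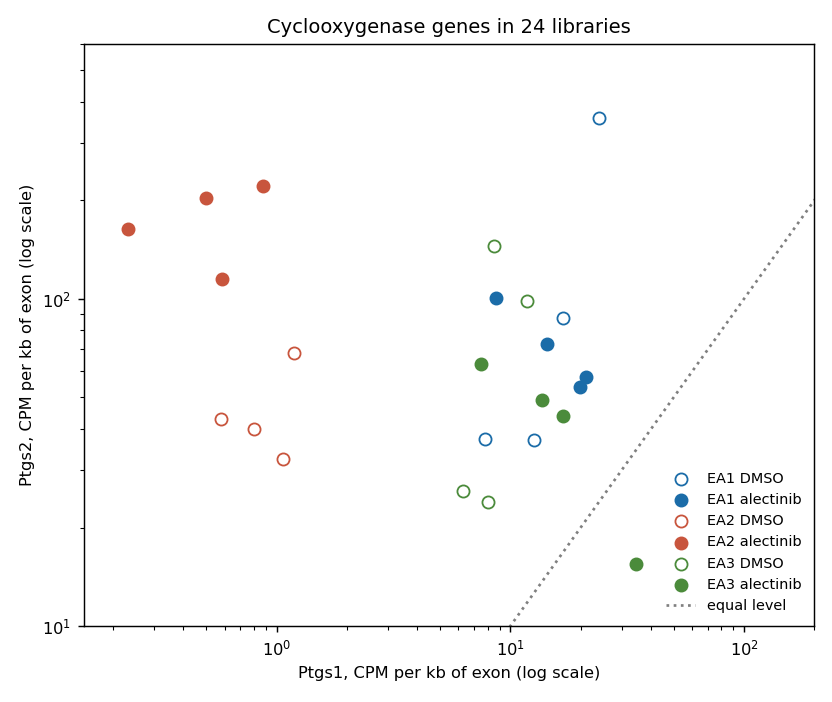
Level of Ptgs2 against that of Ptgs1 in 24 libraries, both in CPM per kilobase of exon on log scales, open points for DMSO and filled points for alectinib. EA2 stands apart at low Ptgs1, with its alectinib libraries above its DMSO libraries, and the day 5 alectinib library of EA3 is below the dotted line of equal level.

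Ptges (chromosome 2, 30889471 to 30929863, minus strand) encodes the inducible, membrane-bound prostaglandin E2 synthase. In EA2 its level on days 1, 2, 3 and 5 was 55.3, 71.2, 131.1 and 101.1 CPM in DMSO and 23.3, 15.0, 18.3 and 5.62 CPM in alectinib. In EA3 it was 37.2, 111, 145 and 313 CPM in DMSO and 8.04, 13.0, 21.3 and 49.8 CPM in alectinib. In EA1 it was 47.0, 72.3, 54.8 and 203 CPM in DMSO and 32.9, 61.1, 94.4 and 93.5 CPM in alectinib. Alectinib libraries had less Ptges than DMSO libraries on 4 of 4 days in EA2 and EA3 and on 3 of 4 days in EA1. The EA3 groups overlapped, because the DMSO value of day 1 was below the alectinib value of day 5, whereas within each day the ratio in that line was below -2 on the log2 scale. The log2 fold change was -2.59 in EA2 (standard error 0.36, adjusted p = 0.0004), -2.69 in EA3 (0.36, 0.000228) and -0.28 in EA1 (0.35, 0.573) by edgeR.

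Of the other synthases, Ptges3 (the cytosolic enzyme, also known as the HSP90 co-chaperone p23; chromosome 10, 128058954 to 128077272, plus strand) was below its DMSO level on 4 of 4 days in EA1 and EA3. In EA1 it went from 264 ± 51.1 CPM in DMSO to 171.4 ± 22.7 CPM in alectinib (SD, n = 4 days). In EA3 it went from 269.7 ± 53.0 to 171.1 ± 19.8 CPM, and in neither line did the groups overlap. EdgeR gave a log2 fold change of -0.61 for EA1 (adjusted p = 0.0042) and of -0.64 for EA3 (adjusted p = 0.00323). In EA2 the means were 286 ± 56.1 and 250.2 ± 40.4 CPM (log2 fold change -0.19, 95% interval -0.48 to 0.10). A processed pseudogene, Ptges3-ps, drew at most 416 counts in a library, and reads could have been split between them. Ptges2 (chromosome 2, 32395896 to 32405772, plus strand), the second membrane-associated synthase, ranged from 17.7 to 55.8 CPM. Its mean went from 27.6 ± 5.36 CPM in DMSO to 20.9 ± 1.39 CPM in alectinib in EA2, without overlap, but the log2 fold change of -0.38 did not pass the edgeR test (adjusted p = 0.142). Its 95% intervals in EA1 (-0.40 to 0.37) and EA3 (-0.43 to 0.32) spanned 0.

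Hpgd (chromosome 8, 56294585 to 56321043, plus strand) encodes the NAD-dependent dehydrogenase that starts the breakdown of prostaglandin E2. In EA3 its level was 0.179, 0.467, 0.264 and 0.494 CPM in DMSO and 34.1, 39.8, 21.6 and 128.9 CPM in alectinib. In EA2 it was 0.0896 CPM (1 count) on day 1 and 0 on the other days in DMSO, and 1.38, 0.707, 7.67 and 11.0 CPM in alectinib. In EA1 it was 0 in all 4 DMSO libraries and 0.868, 1.96, 2.38 and 3.77 CPM in alectinib. Every alectinib library was above every DMSO library of its line. Summed over the 4 days, EA3 had 11 counts in DMSO and 2154 in alectinib, a ratio of pooled CPM of 163.9 (counting interval 91.4 to 329). EA2 had 1 and 184 counts, a ratio of 217 with a counting interval from 38.4 to 8605. EA1 had 0 and 93 counts, which made Hpgd at least 27.5-fold higher with 3 counts over the DMSO group as the floor. These sizes moved with single days, the ratios within their counting intervals. Without day 5, which held 1191 of the 2154 counts, the EA3 ratio was 107 (54.2 to 249). In EA2 it was 97.3 without day 5 (17.0 to 3885) and 139 without day 3 (24.4 to 5529), and without day 1 Hpgd was at least 68.6-fold higher. In EA1 it was at least 15.8-fold higher without day 5. Counting intervals and floors cover counting error only.

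Slco2a1 (chromosome 9, 102988712 to 103096002, plus strand) encodes the prostaglandin transporter. In EA2 its level on days 1, 2, 3 and 5 was 115, 109, 161 and 168.9 CPM in DMSO and 43.8, 38.4, 87.3 and 40.6 CPM in alectinib. In EA3 it was 204, 197, 282 and 168.9 CPM in DMSO and 138, 148, 109.7 and 161 CPM in alectinib. In EA1 it was 148, 219, 144 and 156 CPM in DMSO and 192, 164, 182 and 164 CPM in alectinib. The groups were separate in EA2 and EA3 and overlapped in EA1. The log2 fold change was -1.46 in EA2 (adjusted p = 0.000366), -0.60 in EA3 (0.0483) and 0.09 in EA1 (0.767) by edgeR. The EA3 call was lost without day 1 (adjusted p = 0.124), day 2 (0.0764) or day 3 (0.176, at a log2 fold change of -0.37), with library size as the only scaling (0.108), without the day block (0.0506) and with each line fitted alone (0.0775) by edgeR.

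Ptger4 (chromosome 15, 5206661 to 5244187, minus strand) encodes EP4, the high-affinity receptor of prostaglandin E2. In EA1 its level on days 1, 2, 3 and 5 was 6.69, 8.24, 2.14 and 7.63 CPM in DMSO and 21.4, 32.1, 28.0 and 41.9 CPM in alectinib. In EA2 it was 2.42, 2.08, 2.81 and 2.32 CPM in DMSO and 10.5, 13.8, 25.8 and 6.86 CPM in alectinib. In EA3 it was 1.44, 1.87, 2.37 and 2.80 CPM in DMSO and 7.11, 7.63, 7.06 and 15.4 CPM in alectinib. The groups did not overlap in any of the 3 lines. The log2 fold changes given above had standard errors of 0.31 for EA1, 0.33 for EA2 and 0.34 for EA3 (adjusted p = 0.000157, 0.00022 and 0.00062, edgeR). Genes on the other strand, Gm15937 and Ttc33, share 16.5% of its exon bases, and the strand counted is not stated.

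Ptger2 (chromosome 14, 44988195 to 45003820, plus strand), the EP2 receptor, was close to the limit of detection. EA1 had 8 counts over the 4 DMSO libraries and 4 counts over the 4 alectinib libraries. EA2 and EA3 had 0 counts in every library, which over the DMSO libraries allows up to 0.0759 CPM in EA2 and 0.0899 CPM in EA3. The EA1 ratio of pooled CPM, alectinib to DMSO, was 0.444 with a counting interval from 0.0979 to 1.66, so a difference was not shown. With 0 counts in both treatments, no ratio could be formed in EA2 and EA3. In bulk RNA of this kind, a change in the number of cells that express a gene and a change in RNA per cell cannot be told apart.

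**Figure D4:**
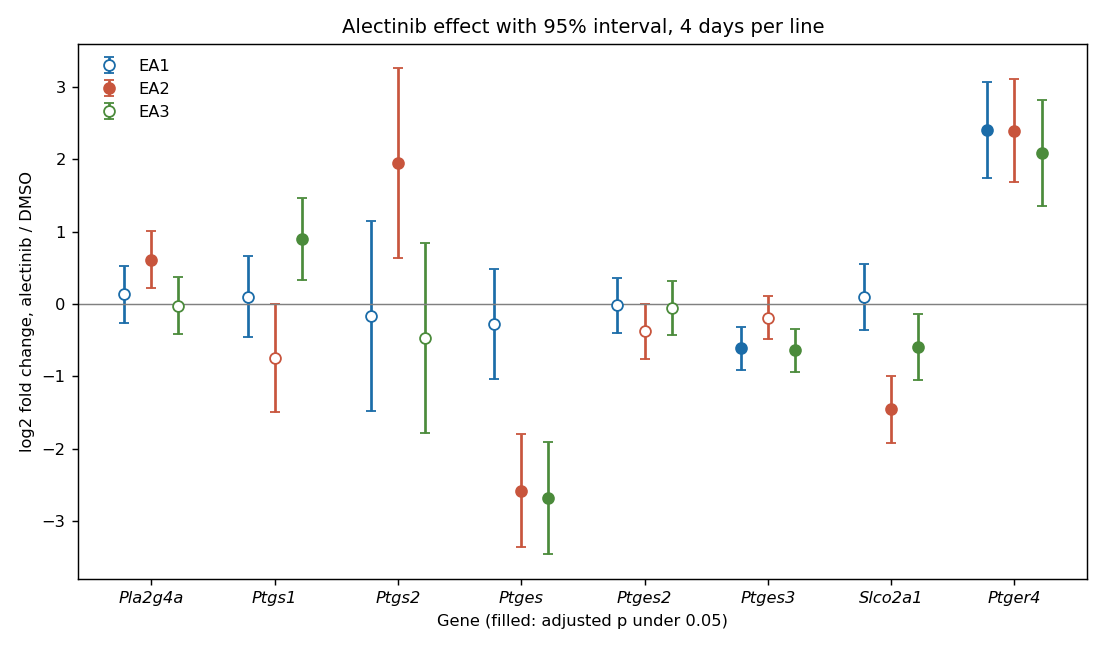
The log2 fold change of alectinib to DMSO with its 95% interval for 8 members in each line, filled where the adjusted p (edgeR) was under 0.05. Ptger4 lies above 1 with its whole interval in all 3 lines, and Ptges lies below -1 with its whole interval in EA2 and EA3, while the intervals of Ptgs2 are the widest drawn. Hpgd is not drawn, because its EA1 DMSO libraries held 0 counts.

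The alectinib effect itself was compared between the lines with a test of 2 degrees of freedom. It called 2 of the 8 tested members other than Hpgd, Ptges (adjusted p = 0.0191) and Slco2a1 (adjusted p = 0.0217, both by edgeR), beside 6.84% of all genes tested. The effect on Ptges was lower in EA2 than in EA1 by a log2 difference of -2.31 (95% interval -3.40 to -1.21, adjusted p = 0.0224), a contrast that called 6.44% of genes in edgeR. It was lower in EA3 than in EA1 by -2.41 (-3.49 to -1.32, adjusted p = 0.035), in a contrast that called 1.79% of genes. EA3 minus EA2 was -0.10 for Ptges (-1.21 to 1.00). The effect on Slco2a1 was lower in EA2 than in EA1 by -1.55 (-2.20 to -0.90, adjusted p = 0.011 by edgeR). Both calls between lines were lost when the EA1 day 3 libraries were left out (adjusted p = 0.0538 for Ptges and 0.0529 for Slco2a1 by edgeR). Ptges also lost its call without day 2 (0.0906), without day 3 (0.175) and without the day block (0.157), and Slco2a1 without day 1 (0.106), day 2 (0.0571) or day 5 (0.115). Ptgs1 did not pass between lines by edgeR (adjusted p = 0.0746) and passed by DESeq2 (0.0147), which called 1955 genes against 976. The effects on Ptger4 differed between EA2 and EA1 by -0.003 (95% interval -0.97 to 0.97) and between EA3 and EA1 by -0.31 (-1.30 to 0.68).

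The lines already differed in DMSO, in 12 libraries with the day as a factor. EdgeR called 5 of the 9 tested members between lines, beside 54.9% of all genes tested. Among the 5 was Hpgd, none of whose DMSO libraries reached the filter, with 11 counts in EA3, 1 in EA2 and 0 in EA1. Ptgs1 had the greatest difference among members with counts in every library, with 59.4 ± 26.6 CPM in EA1, 33.6 ± 8.96 CPM in EA3 and 3.52 ± 1.06 CPM in EA2 (SD, n = 4 days). Neighbours in that order differed, EA3 from EA1 by -0.76 (adjusted p = 0.0112) and EA3 from EA2 by 3.31 on the log2 scale (adjusted p = 2.88e-07, both by edgeR). Ptger4 was higher in EA1 (6.18 ± 2.77 CPM) than in EA2 (2.41 ± 0.302 CPM) and EA3 (2.12 ± 0.595 CPM), with log2 differences of -1.32 and -1.52 (adjusted p = 0.0247 and 0.0165 by edgeR). EA2 and EA3 did not differ beyond their spread in Ptger4 (95% interval -1.14 to 0.74). Ptges2 was higher in EA3 than in EA1 by 0.74 (adjusted p = 0.00505), and Pla2g4a was lower in EA2 than in EA1 by -0.52 (adjusted p = 0.0261, both by edgeR). Slco2a1 was not among the 5 (adjusted p = 0.0579 over the 3 lines), and passed the edgeR test only between EA3 and EA2, where EA3 was higher by 0.64 (adjusted p = 0.0331). The 11 Hpgd counts of EA3 against 0 in EA1 gave an adjusted p of 0.0287 by edgeR and of 0.168 by DESeq2. The Ptger4 calls were lost without day 1, 2 or 5, at adjusted p-values (edgeR) from 0.0871 to 0.152 against EA2 and from 0.0606 to 0.112 against EA3, and against EA2 with library size alone (0.0515). The Ptgs1 difference between EA3 and EA1 was lost without the day block (adjusted p = 0.0858 by edgeR) and was -0.49 without day 3 (0.0492). The Pla2g4a call was lost without day 1, 3 or 5 (0.0901 to 0.105), with library size alone (0.11, at a difference of -0.33), with no filter (0.0767) and without the day block (0.117). The Slco2a1 call was lost without day 1, 2 or 3 (0.0763 to 0.13), with library size alone (0.113) and without the day block (0.0512). Ptges2 lost its call without day 2 (0.0603), and Hpgd without any one day (0.061 to 0.117) and with no filter (0.0898), all by edgeR. Pairwise, 3 members were called for EA2 minus EA1 (39.9% of genes), 4 for EA3 minus EA1, Hpgd among them (31.2%), and 2 for EA3 minus EA2 (35.9%).

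Drift with culture time was tested as a slope per doubling of days, in a fit without the block of line and day. Ptges rose in DMSO in EA1 by 0.83 (95% interval 0.35 to 1.31, adjusted p = 0.0444), where 3.64% of genes were called, and in EA3 by 1.28 (0.80 to 1.77, adjusted p = 0.00533), where 11.3% were called. It also rose in EA3 with alectinib by 1.13 (0.62 to 1.64, adjusted p = 0.0422), where 0.491% of genes were called, all by edgeR. The alectinib level in EA3 thus went up over the days beside the DMSO level, and the slopes differed by -0.15 (-0.86 to 0.55). In EA2 the Ptges slope had the other sign with alectinib, at -0.70 (-1.21 to -0.19, adjusted p = 0.582), and without day 3 it passed the edgeR test (adjusted p = 0.0264). The EA2 slope with alectinib was below that in DMSO by a difference of -1.17 (-1.88 to -0.47), with an adjusted p of 1.0 and an unadjusted one of 0.00411 by edgeR. Leaving out day 1, 2 or 5 ended each of the 3 calls in EA1 and EA3, and library size alone ended that of EA1 (adjusted p = 0.0549 by edgeR). Without day 5, the DMSO slope of EA1 was 0.24 (adjusted p = 0.797), that of EA3 was 1.28 (0.0755) and the alectinib slope of EA3 was 0.88 (1.0 by edgeR). Without day 1 the adjusted p-values were 0.907, 0.859 and 1.0, and without day 2 they were 0.21, 0.0562 and 0.409 (edgeR). Slopes of other members passed the edgeR test when day 3 was left out. These were Ptgs1 in DMSO in EA1 (adjusted p = 0.035) and EA3 (0.0419), and with alectinib in EA3 (0.0177). The same held in EA3 for Ptgs2 in DMSO (0.0127) and Ptges2 with alectinib (0.0454). For the difference of slopes between treatments, edgeR called 0 members in each line, with 0 in EA1, 1 in EA2 and 1 in EA3 at an unadjusted p under 0.05, and it called 0.0%, 0.0% and 0.0631% of all genes tested.

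Levels of the members were compared per kilobase of exon, as means over 24 libraries. Ptges3 (106 CPM per kilobase) and Ptgs2 (89.7) were the most abundant, followed by Ptges (18.9), Pla2g4a (17.8), Slco2a1 (10.9), Ptgs1 (9.92), Hpgd (6.33), Ptges2 (5.23), Ptger4 (1.63) and Ptger2 (0.0104). The order was not that of every group of 4 libraries. Hpgd owed its place to EA3 alectinib cultures (33.3 CPM per kilobase) and was below Ptges2 in the other 5 groups. The mean of Ptgs2 was above that of Ptges3 in EA2 alectinib cultures (175 against 113 CPM per kilobase), on each of the 4 days. In EA1 DMSO cultures (129 against 119) it was above through day 3 alone (356 against 146), and Ptgs2 was the lower on the other 3 days. In the other 4 groups the mean of Ptgs2 was below. The spread over libraries had another order. The SD of log2 CPM was 2.84 for Hpgd, 2.12 for Ptgs1, 1.45 for Ptges, 1.42 for Ptger4 and 1.11 for Ptgs2, against 0.41 for Ptges2, 0.38 for Pla2g4a and 0.38 for Ptges3.

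By Pearson correlation of log2 CPM over the 24 libraries, the genes most like Ptgs2 among 9371 were Tsc22d2 (0.84), Pla2g4a (0.83), 1810013L24Rik (0.82), Sqstm1 (0.81) and Tab2 (0.80). Pla2g4a is itself a member, and its day 3 values in DMSO were the highest of EA1 and of EA3, as those of Ptgs2 were. The genes most like Hpgd were Glul (0.93), Ppp1r12b (0.91), D5Ertd579e (0.91), Ccn4 (0.90) and Decr2 (0.90). These are descriptions over libraries that share lines, treatments and days.

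Among other prostanoid enzymes and receptors, 11 of 21 genes were tested, and 5 rose in EA1, 1 fell in EA2, and 1 rose and 4 fell in EA3. The median log2 fold change of this list was 0.34, -0.25 and 0.15. Ptgr2, a reductase that acts on the 15-keto product of Hpgd, rose in EA1 (log2 fold change 1.22, adjusted p = 0.000388) and EA3 (0.92, 0.00191 by edgeR). Zadh2, a related reductase, fell in EA2 (-0.51, adjusted p = 0.0228) and EA3 (-0.50, 0.0224 by edgeR). Ptgfr, the receptor of prostaglandin F2α, was at 0 CPM in DMSO and 3.84 CPM with alectinib in EA1. It is among the 5 counted there, but it reached the filter in alectinib libraries alone (3 of EA1 and 1 of EA3), so that it had to differ to be tested. Akr1c18 fell in EA3 from 4.87 to 0.423 CPM (adjusted p = 0.000809 by edgeR), and Ptgds, which makes prostaglandin D2, was at 4.02 and 10.6 CPM there (adjusted p = 0.0877).

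Among 14 tested genes of arachidonate supply, 3 rose and 2 fell in EA1, 3 rose and 4 fell in EA2, and 2 rose and 4 fell in EA3. Dagla, a diacylglycerol lipase, fell in all 3 lines, by 1.82, 2.77 and 2.32 on the log2 scale, and Pla2g16, a phospholipase, rose in all 3, by 2.25, 1.93 and 2.03. Anxa1, an annexin known to inhibit phospholipase A2, rose in EA2 (1.25, adjusted p = 0.000522) and EA3 (1.26, 0.000455 by edgeR). Fads1, the desaturase that makes arachidonic acid, fell in EA2 (-0.99, adjusted p = 0.000103) and EA3 (-0.50, 0.0084 by edgeR). Pla2g12a fell in EA1 and EA3 (-0.82 and -1.16), and Pla2g7 in EA3 (-1.52, adjusted p = 0.0343 by edgeR). Of 6 tested genes of other eicosanoid routes, 3 rose in EA1, 3 rose in EA2, and 1 rose and 1 fell in EA3. The epoxide hydrolase Ephx1 rose in all 3 lines (1.47, 1.67 and 0.99), Ephx2 in EA1 and EA2 (1.57 and 3.70), and the leukotriene receptor Cysltr1 in EA2 (3.92). Levels in EA2 were low, with Ephx2 at means of 0.261 CPM in DMSO and 3.74 CPM in alectinib. Cysltr1 was at 0.0949 and 2.05 CPM there, and 2 alectinib libraries of EA2 reached the filter.

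Receptors EP2 and EP4 act through cAMP, and of 17 tested genes known to respond to cAMP and CREB, 4 rose and 5 fell in EA1, 4 rose and 4 fell in EA2, and 4 rose and 6 fell in EA3. Areg (-2.47, -4.14 and -4.56), Fos (-2.97, -2.69 and -3.27) and Nr4a1 (-2.23, -1.88 and -2.46) fell in all 3 lines. These 3 genes are known to respond to MAPK signaling as well. Ppargc1a rose in all 3 (1.43, 1.72 and 2.62). The phosphodiesterase genes Pde4b (EA1 2.90, EA3 1.32) and Pde4d (EA1 0.76, EA2 1.72), whose products break down cAMP, each rose in 2 lines. Fosb (-1.27 and -1.69) and Junb (-1.40 and -1.40) fell in EA1 and EA3, Rgs2 fell in EA2 and EA3 (-5.70 and -2.49), and Id2 rose in EA2 and EA3 (0.74 and 0.60). Rgs2 was low in EA2, at means of 2.3 CPM in DMSO and 0.0442 CPM in alectinib. Of 18 tested inducers and mRNA regulators of Ptgs2, 1 rose and 1 fell in EA1, 3 rose and 2 fell in EA2, and 1 rose and 4 fell in EA3. Zfp36l2, of a family of proteins that destabilize AU-rich mRNAs, fell in all 3 lines (-0.84, -1.69 and -1.15), Nfkb1 rose in EA2 and EA3 (0.43 and 0.68), Nfkbia rose in EA2 (1.62) and Egr1 fell in EA2 (-4.19). Junb in EA2 was at a log2 fold change of 0.52 (adjusted p = 0.443 by edgeR).

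Etv4, a MAPK-responsive gene taken as the check of drug action, was below its DMSO level on each of the 4 days of every line treated with alectinib. The labelled cell type was checked on 8 epithelial markers, of which none was at 0 throughout in EA1 or EA3, whereas Cldn4 was at 0 in EA2 DMSO and Epcam at 0 in EA2 alectinib libraries. Cldn4 and Cldn7 were at means of 0.291 and 0.111 CPM in EA1 DMSO libraries and of 123 and 61.0 CPM in those of EA3. The summed level of the epithelial list was 4680 to 9310 CPM with DMSO and 3280 to 5420 CPM with alectinib in EA1. In EA2 it was 1810 to 2700 and 568 to 1170 CPM, without overlap, and in EA3 it was 5380 to 7960 and 3620 to 8620 CPM. Alectinib raised 2 of the 8 and lowered 2 in EA2 (Cdh1 and Krt7 higher, Krt8 and Krt18 lower), and raised 1 and lowered 1 in each of the other lines. The lower sum in EA2 went with the member changes there, and its part in them was not tested. Of 6 alveolar type 2 markers, Sftpa1 was at 0 in all 24 libraries and Nkx2-1 in the DMSO libraries of each line, and the summed level of that list was at most 187 CPM. Abca3, the 1 tested marker of the list, went from a mean of 68.5 to 125 CPM with alectinib in EA3 (adjusted p = 0.0169 by edgeR). Its means were 40.3 and 56.8 CPM in EA1 (0.107) and 6.04 and 6.4 CPM in EA2 (0.945). Of 8 fibroblast markers, 6 were tested, and alectinib raised 5 of them in EA1 and EA3 (the collagens Col1a1, Col1a2 and Col3a1, with Dcn and Pdgfrb) and the 3 collagens in EA2. Their summed level in EA1 was 9.08 to 44.1 CPM with DMSO and 126 to 478 CPM with alectinib. In EA2 it was 58.5 to 71.5 and 122 to 240 CPM, and in EA3 it was 10.2 to 20.2 and 84.8 to 274 CPM. Lum was at 0 in the DMSO libraries of all 3 lines and Col1a2 in those of EA1. Several of these calls rest on low levels. In EA1, where no library reached the filter for Col1a2, its alectinib mean was 0.463 CPM. Mean Col3a1 in EA3 was 0.0224 (DMSO) and 6.42 CPM (alectinib), and mean Pdgfrb was 0 and 1.88 CPM. Each had 1 alectinib library there at the filter. For Col3a1 in EA2 the means were 0.404 and 1.58 CPM (adjusted p = 0.0452 by edgeR). Col1a1 reached the filter in all 4 alectinib libraries of each line. The rise of the fibroblast markers went with that of Hpgd and Ptger4, and their part in it was not tested. The summed level of 8 haematopoietic markers reached at most 94.7 CPM (Cd68 had a mean of 37.9 CPM in EA3 DMSO libraries), and that of 5 endothelial markers at most 9.39 CPM, with Cldn5 at 0 in every line.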

How the data were processed

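RNA from EA1, EA2 and EA3 was sequenced by the authors from a stranded, polyA-selected library kit as paired reads. Per the methods, the authors trimmed adapters with bbduk, checked quality with FastQC, mapped to mm10 with STAR and took its internal gene counts. The deposited values are raw counts per gene, not normalized. The annotation and the strand column counted are not given in the sources used here. Date numbers stood in place of symbols in 24 lines of the table, and these lines, at 0.129% to 0.201% of the counts per library, were not used.

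Members and lists were chosen with earlier results of these data known. Groups follow the sample labels, with 4 days per line and treatment. The tests ran in edgeR 4.0.16 under R 4.3.3 (TMM, filterByExpr by line and treatment, robust quasi-likelihood test, Benjamini-Hochberg adjustment). For the alectinib effects, line and day formed blocks because both treatments of a day share a culture day. Deviations of same-day libraries correlated between -0.300 and 0.549 across genes. The slope fit held a mean and a slope for each line and treatment, without these blocks. Intervals are 95% Wald intervals from the coefficient covariance. A floor of 3 counts was used. Lengths are unions of exons in the GENCODE M21 annotation, in which 55314 symbols matched and 77 did not, and promoters are from RefSeq.

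All members are named with values. Genes of the other pathway lists are named where they passed the alectinib test in at least 2 lines with 1 sign, or were among the 3 with the largest mean size of change in their list. Cell type markers are outside that rule, and those named were chosen after their values were seen. The 5 genes most like Ptgs2, and most like the other member with the largest SD, had an average log2 CPM of at least 3. On simulated counts with 200 changed genes among 14264, the alectinib test in EA1 recovered 40 of 102 changed 2-fold and 78 of 98 changed 4-fold, with 5 false calls. On the same counts the test between lines recovered 9 of 102 and 73 of 98, with 4 false calls. Apart from the change, each simulated gene had the same mean in all lines and days, unlike the data, so these shares may not carry over. Alternatives changed the tool (DESeq2 1.42.0), the scaling (DESeq2 size factors, or library size alone), the filter (none, or 10 counts as the least in a library), the block (none), the samples (a line by itself, all 26 libraries, or without 1 day) and the time scale (day as its rank). Leaving out the EA1 day 3 libraries, and each day from the Hpgd ratios, was added after seeing the data. The 2 libraries labelled EA3 day 7 entered the fit of all 26 libraries alone. A further label of the lines is not reported here.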

Additional observations from a re-analysis of the deposited data

Results flagged for a closer look

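Of 53 groups of 4 libraries in which a member was measured, 6 held a library set apart from the others by Dixon's test, where chance gives about 1 group in 20. These were Ptgs2 in EA1 DMSO on day 3 (1632 CPM), Ptges in EA1 DMSO on day 5 (203.4 CPM), and Hpgd and Ptger4 in EA3 alectinib on day 5 (128.9 and 15.36 CPM). The others were Slco2a1 in EA1 DMSO on day 2 (219.1 CPM) and in EA2 alectinib on day 3 (87.3 CPM). The alectinib effect differed between lines for Ptges (adjusted p = 0.0191) and Slco2a1 (adjusted p = 0.0217) in edgeR's comparison of all 3 lines, and both were lost without the EA1 day 3 libraries. In the alectinib library labelled EA3 day 7, which only the fit of all 26 libraries used, Hpgd was at 19.32 CPM, and it was at 0 in the DMSO library of that label.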

How the results depend on the processing

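No value past the threshold changed sign under any alternative run. Of 1063 tested values of single genes under alternatives, 969 kept their side of the threshold, 76 lost it and 18 gained it, and of 274 counts of calls 202 stayed within 1.5 times. The calls of Ptger4 in 3 lines, Ptges and Ptges3 in their 2 called lines each and Slco2a1 in EA2 held under every alternative that tested them. Ptgs2 in EA2 held under 9 of 13, Pla2g4a in EA2 under 10 of 13, Ptgs1 in EA3 under 8 of 12 and Slco2a1 in EA3 under 7 of 13. The causes were not tested.

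Counts of members here include Hpgd. The edgeR fit with no filter estimated infinite prior degrees of freedom and so used no spread of a gene's own. Of genes whose alectinib effect differed between lines (976), DESeq2 called 1955, no filter on low counts 2698 and all 26 libraries, with the pair labelled EA3 day 7 counted as EA3 although closer to EA2, 400. Of members (2), no filter called 4. Leaving out the EA1 day 3 libraries, chosen after seeing the data, called 0 members and 672 genes between lines, and 3079 genes for alectinib in EA1 (4791). Without the day block, 1 member differed between lines instead of 2 (genes from 976 to 807). With library size alone, members called for EA3 minus EA2 in DMSO went from 2 to 1 (genes from 5120 to 5477) and for the DMSO slope in EA1 from 1 to 0 (genes from 519 to 694). With day as its rank, genes called for the alectinib slope in EA2 went from 9 to 4.

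With each day left out in turn, the counts of genes called for alectinib ran from 2803 to 4058 in EA1, from 2155 to 2650 in EA2 (main 3475) and from 2835 to 3900 in EA3 (main 4650). Between lines they ran from 215 to 812 genes and from 0 to 1 members. In DMSO, members called between lines ran from 2 to 3 (main 5, with 5477 to 7430 genes, main 7829), for EA2 minus EA1 from 1 to 2 (3, with 4026 to 5356 genes, main 5698), for EA3 minus EA1 from 1 to 3 (4, with 2718 to 4162 genes) and for EA3 minus EA2 from 1 to 2 (2, with 3255 to 4971 genes). Genes called for slopes ran from 0 to 1598 for DMSO in EA1 (members 0 to 2) and from 0 to 2943 in EA3 (members 0 to 3). For slopes with alectinib they ran from 0 to 12 in EA1, from 0 to 93 in EA2 (members 0 to 1) and from 0 to 572 in EA3 (members 0 to 3). For the difference of slopes they ran from 0 to 52 in EA1, from 0 to 25 in EA2 (members 0 to 1) and from 0 to 196 in EA3 (members 0 to 1). The highest of these slope counts came without day 3.

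Depth limits Ptger2, Hpgd in DMSO and Ptgs1 in EA2, which rest on few counts, and the 4 days of a line stand in for replicates.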

Other observations

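The 2 libraries labelled EA3 day 7 correlated across 9314 genes more closely with the mean log2 CPM of EA2 (r = 0.925 in DMSO, 0.976 in alectinib) than with that of EA3 (0.822 and 0.814) or EA1 (0.802 and 0.78), so they go against their label. In the library labelled EA3 day 7 with DMSO, Ptgs2 was at 1078 CPM, Ptges at 124.6, Slco2a1 at 86.3, Ptgs1 at 6.43, Ptger4 at 4.54 and Hpgd at 0 CPM. In the library with that label and alectinib, Ptgs2 was at 518 CPM, Ptges at 9.07, Slco2a1 at 40.0, Ptgs1 at 1.78, Ptger4 at 10.6 and Hpgd at 19.3 CPM. Ptgs2 was thus lower with alectinib in that pair. Each group is 1 library, so that these values have no replicate.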
